A study of Mus musculus with 6 samples.

Results

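The integrin and laminin genes of the mouse were followed in chromatin of primary fetal myotubes, in which binding of the transcription factor Sox6 and of RNA polymerase II (Pol II) was measured by chromatin immunoprecipitation and sequencing (ChIP-seq). The members were all protein-coding genes whose symbol begins with Lama, Lamb or Lamc and a number, or with Itga or Itgb and a number or 1 of the letters that stand for a chain (as in Itgam or Itgav), which takes in genes named after an integrin. This gave 43 of 22359 protein-coding genes. They were 18 integrin α chains, 9 genes grouped as integrin β chains, 5 laminin α chains, 3 laminin β chains and 3 laminin γ chains. A further 5 genes have a name that refers to an integrin although they encode no chain (Itgb1bp1, Itgb1bp2, Itgb1bp3, Itgb3bp and Itgbl1). Itgb2l was grouped with the β chains by its symbol alone. The rule reads names only. Positions are those of the mm9 assembly (NCBI Build 37).

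The 6 libraries form 3 groups of 2: chromatin precipitated with a Sox6 antibody, chromatin precipitated with a Pol II antibody, and input, which is chromatin with no antibody step. All came from wild type C57BL/6 mice. Myoblasts from limbs of E18.5 fetuses were grown as primary cells, with a passage number of 17 in the labels, and fused to myotubes for 48 h in medium with 2% horse serum. No second condition, genotype or time was sequenced, so each comparison is between an immunoprecipitation and input. The libraries of a group are labelled as replicates, and nothing in the labels ties them to separate animals. P-values therefore rest on the spread between 2 libraries a group, which may be partly technical. In the limma fits that spread is shrunk towards a trend over all windows tested. Very small p-values of those fits hence do not come from the 2 libraries of each group alone.

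The Sox6 libraries held 2985437 and 1468604 mapped reads, the Pol II libraries 1538757 and 2762155, and the inputs 21973495 and 24249850. Markers of the labelled cell type were present, since all 10 skeletal muscle genes listed, Myh3 and Myog among them, carried more Pol II than input in their bodies, with summed levels of 331 and 348 RPKM (reads per kb of window and per 1000000 reads of the library) in the Pol II replicates. Sums over the other lists were 1.49 and 1.24 RPKM for 5 leukocyte genes, 1.11 and 0.894 for 6 endothelial genes, 2.09 and 2.06 for 6 fibroblast genes, 2.12 and 1.17 for 6 epithelial genes and 9.15 and 7.84 for 5 Schwann cell genes. Of the last sum, Erbb3 alone gave 7.26 and 7.03. Called higher in these lists were Csf1r of the leukocyte genes and Erbb3, and called lower were 2 leukocyte, 5 endothelial, 3 fibroblast, 3 epithelial and 1 Schwann cell gene, beside 25.6% of all genes. These calls were made at equal library size. With libraries scaled to background bins instead, 2 genes of each of the 5 lists were higher (65.3% of all genes) and 1, of the leukocyte list, was lower (1.82%). With a correction for G+C content at equal library size, 1 Schwann cell gene was higher (30.1% of all genes) and Csf1r was not. Lower were then 3 leukocyte, 6 endothelial, 3 fibroblast, 3 epithelial and 1 Schwann cell gene (33.1%). At starts the sums were 12.02 and 11.4 RPKM for 7 leukocyte genes, of which Cd68, whose body is too short to be tested, gave 10.7 and 10.3 with 33 and 57 Pol II reads (log2 difference 3.88 ± 0.28, adjusted p = 3.96e-42, and 3.17 with a correction for G+C content), and the other 6 were not called. For 5 Schwann cell genes they were 20.8 and 17.9, of which Erbb3 gave 18.2 and 15.02. Of these genes 2 were higher, Erbb3 among them, and with that correction 2 were higher, again with Erbb3, and 1 was lower. Start sums of the endothelial, fibroblast and epithelial lists lay between 0.724 and 2.92, with 0 genes higher. Pol II in the body of Ptprc, which defines leukocytes, was 0.175 and 0.140 RPKM, under the input.

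Laminins are cross-shaped trimers of an α, a β and a γ chain that polymerise into the basement membrane, the sheet of matrix around every muscle fibre. Integrins are receptors of the cell surface, each a pair of an α and a β chain, that hold laminin, fibronectin or collagen outside the cell and couple to actin inside through talin, kindlin and the kinase-like protein Ilk. In skeletal muscle the main laminin receptor is the pair encoded by Itga7 and Itgb1, and the main laminin α chain of the adult fibre is that of Lama2. Several other pairs belong to leukocytes, platelets or epithelia. Sox6 is a factor of the SoxD family that binds DNA through an HMG box and is known in fetal muscle for repressing slow fibre genes. Pol II on the body of a gene is the enzyme in the course of transcription, and Pol II at the start includes enzyme that waits there.

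The promoters of the 5 members with most Pol II reads within 1000 bp of their start are printed to show what sequence lies there. Each is the 250 bases before the start of the longest protein-coding model, 5′ to 3′ on the gene's strand. Capitals mark matches, on either strand, to CAGCTG or CAGGTG (E-boxes, the motif type that MyoD and myogenin bind), to GGAATG (the motif of TEAD factors) or to TATAAA, and no printed match overlaps another. The first is Itgb1bp3 (chr10:80664783-80665032, minus strand), followed by Itgb1bp2 (chrX:98644177-98644426, plus strand), Itgb6 (chr2:60560701-60560950, minus strand), Itga7 (chr10:128370619-128370868, plus strand) and Itgb1 (chr8:131209304-131209553, plus strand).
Itgb1bp3: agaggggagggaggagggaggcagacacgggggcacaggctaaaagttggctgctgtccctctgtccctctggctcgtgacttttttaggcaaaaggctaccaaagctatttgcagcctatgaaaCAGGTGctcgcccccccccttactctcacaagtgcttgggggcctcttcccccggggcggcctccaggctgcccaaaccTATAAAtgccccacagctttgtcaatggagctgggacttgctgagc
Itgb1bp2: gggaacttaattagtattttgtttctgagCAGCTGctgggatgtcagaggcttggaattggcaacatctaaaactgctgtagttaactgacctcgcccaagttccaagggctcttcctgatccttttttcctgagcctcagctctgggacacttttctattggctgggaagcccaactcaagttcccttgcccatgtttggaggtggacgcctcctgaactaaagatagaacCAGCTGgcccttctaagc
Itgb6: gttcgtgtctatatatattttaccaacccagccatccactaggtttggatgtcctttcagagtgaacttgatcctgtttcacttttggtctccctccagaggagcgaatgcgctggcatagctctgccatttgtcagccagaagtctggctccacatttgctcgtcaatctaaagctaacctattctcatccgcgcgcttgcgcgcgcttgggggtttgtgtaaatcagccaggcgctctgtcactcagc
Itga7: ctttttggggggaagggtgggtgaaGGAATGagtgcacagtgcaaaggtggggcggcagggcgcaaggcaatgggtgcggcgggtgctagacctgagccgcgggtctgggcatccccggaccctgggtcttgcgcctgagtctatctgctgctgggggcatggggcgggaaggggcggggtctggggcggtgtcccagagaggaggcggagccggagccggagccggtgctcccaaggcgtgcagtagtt
Itgb1: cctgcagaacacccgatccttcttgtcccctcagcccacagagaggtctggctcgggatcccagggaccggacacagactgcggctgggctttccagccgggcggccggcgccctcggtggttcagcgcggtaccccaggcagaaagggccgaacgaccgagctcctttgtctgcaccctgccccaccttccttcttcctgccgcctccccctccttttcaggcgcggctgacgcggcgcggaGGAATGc
Over all 22359 promoters of this length, CAGCTG was found in 11.8%, CAGGTG in 16.8%, GGAATG in 11.3% and TATAAA in 12.2%. Among the 43 members, 8 held CAGCTG (18.6%), 10 held CAGGTG (23.3%), 5 held GGAATG (11.6%) and 2 held TATAAA (4.65%). A match says that the letters are present, and the window of Itgb6 held none of the 4 motifs.

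Pol II levels in the bodies of these genes spanned a wide range, with Itgb1bp3, Itgb1bp2 and Itga7 at the top and Itgbl1 at the bottom. For the gene body, from 1000 bp after the start to the end of the model, 18 members had more Pol II than input, 17 had less and 8 were not called, by limma on log2 values with Benjamini-Hochberg adjustment over 18503 genes at 0.05. Over all those genes 38.3% were higher and 25.6% lower. All 43 members passed the filter of at least 10 input reads. The median log2 difference of the members was -0.09, beside 0.13 over all genes tested. These differences are taken at equal library size and are thus relative to all reads of a library.

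Pol II libraries held fewer reads away from genes than the inputs. Bins of 10 kb were taken at least 5 kb away from protein-coding genes and, with a smaller margin, outside peaks. They held 16.7% and 15.9% of the Pol II reads, and 42.0% and 41.3% of the input reads. With libraries scaled to these background bins instead, the median over all genes moved from 0.13 to 1.49 and that of the members from -0.09 to 1.26. On this scale 33 members were higher (65.3% of all genes) and 1, Itgbl1, was lower (1.82% of all genes). The 18 members called higher at equal library size were all higher here too. Of the 17 called lower, 8 turned higher, 1 stayed lower and 8 were not called. A lower call at equal library size is hence a position relative to all reads of a library, and the order of the members is unaffected by the scale.

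Base composition moved the counts as well. After a correction by background bins of like G+C content, 8 members were higher and 21 lower at equal library size (30.1% and 33.1% of all genes), and with both steps 29 were higher and 2 lower (57.7% and 1.92%). The same 8 members were higher in all 4 combinations of these steps: Itga5, Itga6, Itga7, Itgb1, Itgb6, Lama5, Itgb1bp2 and Itgb1bp3. Over all genes 28.8% did so.

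**Figure D1:**
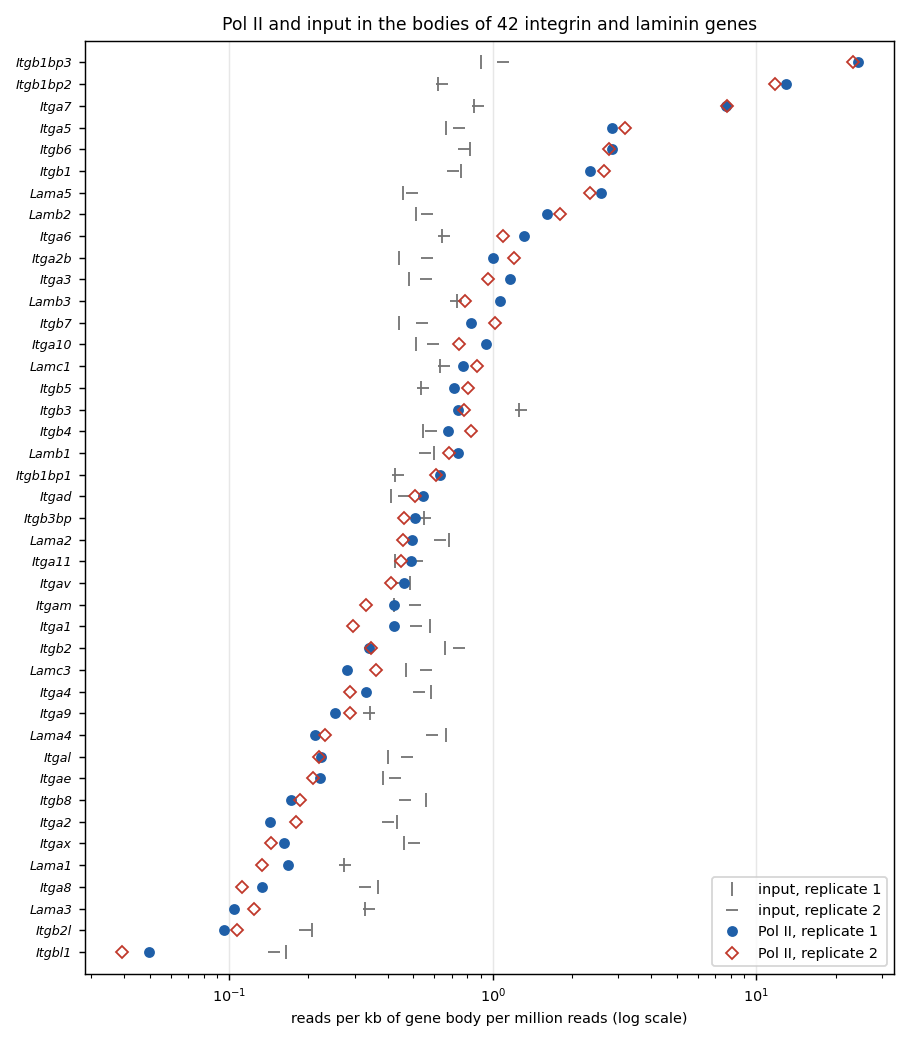
Pol II (circles, replicate 1; diamonds, replicate 2) and input (grey marks) in the body of 42 of the 43 members, in RPKM on a log axis, ordered by mean Pol II level. Itgb1bp3, Itgb1bp2 and Itga7 stand apart at the top with 7.70 or more in both Pol II libraries, and input stays between 0.148 and 1.28 for every member shown.

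**Figure D2:**
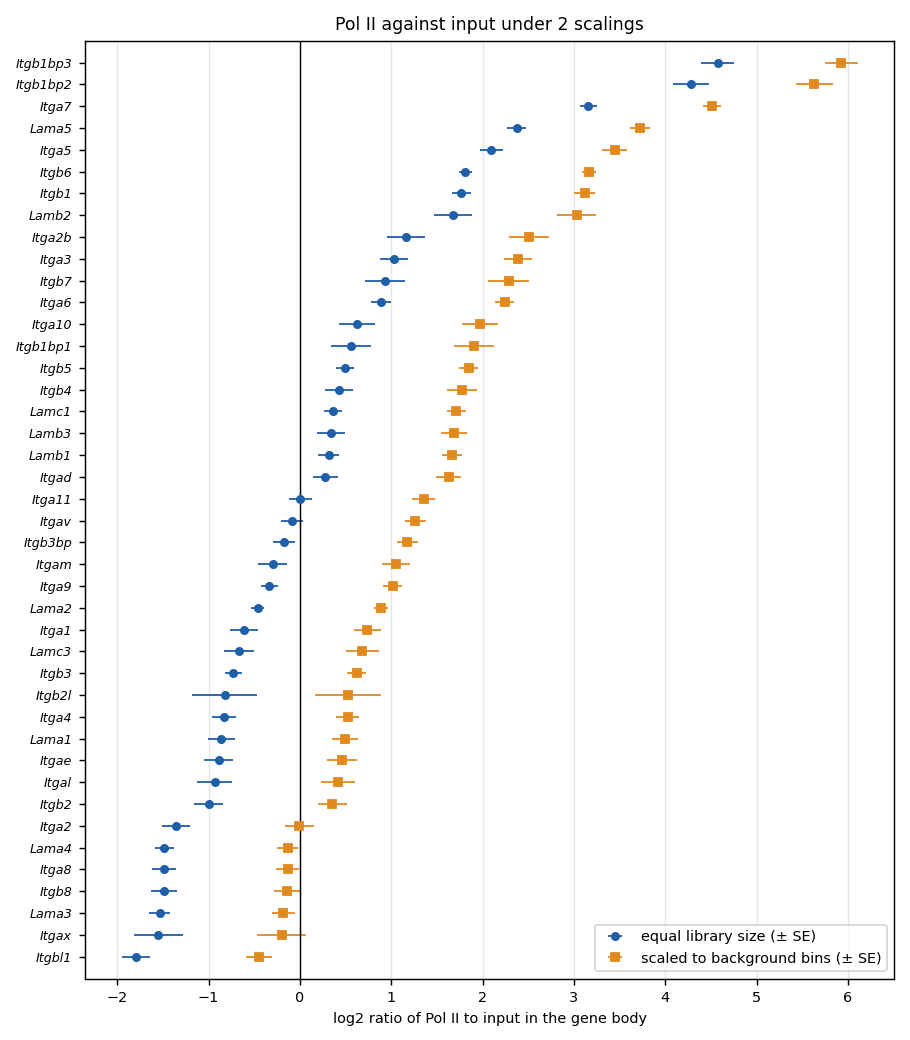
The log2 difference between Pol II and input in the body of 42 members, with its standard error, at equal library size (circles) and with libraries scaled to background bins (squares). The scaling moves all 42 points to the right, the median of the 43 members from -0.09 to 1.26, and leaves their order.

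Among the receptors, the laminin-binding α chains and Itgb1 were all on the higher side. Itga7 (chr10:128370869-128395333) had 7.70 RPKM of Pol II in replicate 1 and 7.75 in replicate 2, against 0.850 and 0.882 in the inputs. Its log2 difference was 3.16 ± 0.09 (SE), adjusted p = 1.91e-08, and its mean Pol II level was at the 98.84th percentile of gene bodies. Both Pol II libraries were far above both inputs. The last part of Itga7 overlaps Mettl7b on the other strand, whose own body had 7.98 and 8.68 RPKM, and with positions shared with other genes left out the difference of Itga7 was 3.16.

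Itgb1 (chr8:131209554-131257100), the β chain that pairs with most α chains of muscle, had 2.35 and 2.65 RPKM against 0.761 and 0.709. Its log2 difference was 1.77 ± 0.10, adjusted p = 8.26e-07, and no other protein-coding gene overlaps it. Itga6, another laminin-binding chain, had 1.31 and 1.09 RPKM and a difference of 0.89 ± 0.11, adjusted p = 1.05e-04. Itga3 had 1.16 and 0.959 RPKM and a difference of 1.03 ± 0.16, adjusted p = 3.33e-04. Itga3 and Itga6 overlapped in level, so their order is not resolved, and both lay under Itgb1 and Itga7 in each replicate. The call of Itga3 was lost with the G+C correction, where its difference was 0.32 with adjusted p = 0.108.

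Itgb4, the chain that pairs with Itga6 in epithelial hemidesmosomes, had 0.676 and 0.830 RPKM and a difference of 0.43 ± 0.15, adjusted p = 0.0361. Its reads were uneven. The gene was cut into 5 parts of equal length, and the first held 0.0964 and 0.591 RPKM and the last 1.83 and 2.09, and the 3′ end of Galk1, whose body had 2.99 and 2.44 RPKM, lies 45 bp from its own on the other strand. The part of Galk1 in this value was not tested. With the G+C correction the difference of Itgb4 was -0.72, adjusted p = 5.28e-03.

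Of 8 chains whose pairs bind the RGD tripeptide of fibronectin, vitronectin or fibrinogen, 4 were higher, 3 were lower and 1 was not called at equal library size, and 6 were higher on the background scale, beside shares of 38.3%, 25.6% and 65.3% over all genes. With the G+C correction 2 were higher, 3 lower and 3 not called, beside 30.1% higher over all genes. Itga5, the α chain of the fibronectin receptor, had 2.84 and 3.17 RPKM against 0.663 and 0.747 in the inputs. The difference was 2.10 ± 0.13, adjusted p = 1.14e-06. Itgb6 (chr2:60438288-60560700), best known from epithelia, came next with 2.83 and 2.77 RPKM against 0.822 and 0.775, a difference of 1.81 ± 0.07, adjusted p = 9.32e-08. Its level was above that of Itgb1 in both replicates, and no other protein-coding gene overlaps it. Of the 6 epithelial markers, Cdh1, Epcam and Esrp1 had less Pol II than input in their bodies, and Krt5, Krt8 and Krt14 were not called, with log2 differences from -1.75 for Epcam to 0.42 for Krt8 and summed levels of 2.12 and 1.17 RPKM. Their part in the value of Itgb6 was not tested.

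Itgb5 had 0.713 and 0.807 RPKM and a difference of 0.50 ± 0.10, adjusted p = 1.56e-03, which went to -0.07 with the G+C correction. Itga2b, the platelet chain, had 1.001 and 1.21 RPKM and a difference of 1.16 ± 0.21, adjusted p = 1.03e-03, a call lost with the G+C correction (0.23, adjusted p = 0.336). Itgav, the α chain that pairs with the products of Itgb3, Itgb5, Itgb6 and Itgb8, had 0.462 and 0.413 RPKM and a difference of -0.09 ± 0.12, adjusted p = 0.535. On the background scale it was 1.26, adjusted p = 4.81e-06, so its call and its sign depend on the scaling. Itgb3 had 0.741 and 0.778 RPKM, but its input, 1.26 and 1.28, was the highest of the members, and its difference was -0.73 ± 0.09 at equal library size and 0.62 on the background scale, adjusted p = 3.33e-04. Itga8 and Itgb8 were lower at equal library size and were not called on the background scale.

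The 4 collagen-binding α chains and the 8 genes listed for leukocyte integrins, Itgb2l among them, were mostly low. Of the former, Itga10 was higher, Itga1 and Itga2 were lower and Itga11 was not called, beside 38.3% higher and 25.6% lower over all genes, and on the background scale 3 were higher and 0 lower (65.3% and 1.82% over all genes). With the G+C correction 0 were higher and 3 lower (30.1% and 33.1%), and Itga10 was not called. Itga1 had 0.423 and 0.296 RPKM (-0.61 ± 0.16, adjusted p = 7.58e-03, and 0.74 on the background scale). Pelo overlaps Itga1 on the same strand, with its start 11776 bp from that of Itga1. The first of 5 equal parts of Itga1 held 0.903 and 0.667 RPKM, and each later part at most 0.565. Itga11, at 0.488 and 0.451 RPKM, had a difference of 0.01 ± 0.12, adjusted p = 0.974. Of the latter, 1 was higher, 4 were lower and 3 were not called at equal library size, and 4 were higher and 0 lower on the background scale. With the G+C correction 0 were higher, 6 lower and 2, Itgb7 among them, not called. Their median level was 0.282 RPKM. Itgb2, the shared β chain of leukocytes, had 0.340 and 0.347 RPKM against a mean input of 0.702, and a difference of -0.999 ± 0.16, adjusted p = 4.36e-04. Itgam had 0.423 and 0.331 RPKM (-0.30 ± 0.16, adjusted p = 0.136) and Itgae 0.221 and 0.207 (-0.89 ± 0.16, adjusted p = 9.69e-04). Itgb7 was the one called higher, at 0.827 and 1.02 RPKM, and the last of 5 equal parts held 2.04 and 2.50 RPKM with the 3′ end of Zfp740 390 bp away. The remaining α chains were lower at equal library size and higher on the background scale, with Itga9 at 0.253 and 0.286 RPKM (-0.34 ± 0.09, adjusted p = 0.0105) and Itga4 at 0.331 and 0.288.

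Of the 11 laminin genes 4 were higher, 5 lower and 2 not called at equal library size, 9 were higher and 0 lower on the background scale, and 1 was higher and 5 lower with the G+C correction. Over all genes 38.3%, 65.3% and 30.1% were higher on these scales. Lama5 (chr2:179911078-179960564) had 2.57 and 2.34 RPKM against 0.456 and 0.494 in the inputs, a difference of 2.37 ± 0.11, adjusted p = 1.64e-07. The last of 5 equal parts of Lama5 held 3.55 and 3.11 RPKM and the first 2.82 and 2.30. The 3′ end of Adrm1 lies 87 bp from that of Lama5 on the other strand. The other 4 α chains were lower at equal library size. Lama2 (chr10:26701094-27336748), the longest member at 635.7 kb, had 0.496 and 0.456 RPKM against 0.683 and 0.630, a difference of -0.46 ± 0.07, adjusted p = 4.40e-04. On the background scale Lama2 was 0.89, adjusted p = 2.67e-06, and thus changed sign, and with the G+C correction it was not called (-0.14, adjusted p = 0.134). Lama4 had 0.213 and 0.232 RPKM against 0.664 and 0.591, a difference of -1.49 ± 0.11, adjusted p = 3.07e-06, and on the background scale -0.13, adjusted p = 0.326. In each replicate the order was Lama5, Lama2, Lama4, with gaps larger than the difference between replicates, and the lowest value of Lama5 was above the highest of Lama2.

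Of the β chains, Lamb2, the chain of the neuromuscular junction, had 1.61 and 1.80 RPKM and a difference of 1.68 ± 0.21, adjusted p = 9.73e-05. The last of 5 equal parts of Lamb2 held 3.05 and 2.54 RPKM, the fourth 0.609 and 0.848 and the first 1.83 and 2.89. Usp19 starts 159 bp past the end of Lamb2 on the same strand. Lamb1 had 0.739 and 0.686 RPKM and a difference of 0.31 ± 0.11, adjusted p = 0.0342. Lamb2 lay above Lamb1 in both replicates. Neither kept its call with the G+C correction, where Lamb2 was 0.35, adjusted p = 0.174, and Lamb1 -0.08, adjusted p = 0.614. Lamb2 has the highest G+C content of the members' bodies, 55.66%. Lamb3 had 1.06 and 0.787 RPKM and a difference of 0.34 ± 0.15, adjusted p = 0.0805.

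Lamc1, the γ chain of most laminins, had 0.772 and 0.876 RPKM and a difference of 0.36 ± 0.10, adjusted p = 8.49e-03, and was not called with the G+C correction (0.14, adjusted p = 0.231). Lamc3 was lower. Of 14 members listed for their known roles in muscle, Itgb1bp2 among them, 11 were higher and 2 (Lama2 and Lama4) lower at equal library size, and 13 were higher on the background scale, beside 38.3%, 25.6% and 65.3% of all genes. With the G+C correction 6 of the 14 were higher, 1 was lower and 7 were not called, beside 30.1% higher over all genes.

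The highest values of all belonged to genes that encode no receptor chain. Itgb1bp3 (chr10:80660915-80664782), which encodes a nicotinamide riboside kinase also called Nmrk2, had 24.3 and 23.4 RPKM of Pol II against 0.905 and 1.09 in the inputs. Its log2 difference was 4.58 ± 0.18, adjusted p = 7.99e-08, and its mean Pol II level was at the 99.89th percentile of gene bodies. For comparison Actb had 24.1 and 33.9 RPKM and Myh3 72.3 and 76.8. Itgb1bp2 (chrX:98644427-98648880), which encodes melusin, a chaperone of striated muscle that binds the integrin tail, had 13.0 and 11.7 RPKM against 0.619 and 0.645, a difference of 4.28 ± 0.20, adjusted p = 2.34e-07.

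The levels of the other genes of this kind were far under these. Itgb1bp1, which encodes a protein that binds the tail of the β chain, had 0.632 and 0.610 RPKM. It was called higher than input, with a difference of 0.56 and adjusted p = 0.04999, just under the threshold. With the G+C correction it was not called higher. Itgb3bp, which encodes a protein of the centromere, had 0.507 and 0.461 RPKM and a difference of -0.18 ± 0.12, adjusted p = 0.226. Itgbl1, a secreted protein with integrin-like repeats, was lowest of the members at 0.0496 and 0.0391 RPKM.

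At the start, within 1000 bp on either side, 12 members had more Pol II than input (40.3% of all genes) and 2 had less (1.39%). On the background scale 25 were higher (60.0%), and with the G+C correction 6 were higher (18.7%), namely Itga2b, Itga7, Itgb1, Itgb6, Itgb1bp2 and Itgb1bp3, and 8 lower (10.3%). With limma's voom weights 3 were higher (3.84%) and 0 lower (0.0240%). Counts at starts were small. Itgb1bp3 had 58 and 95 Pol II reads against 29 and 33 input reads from libraries many times deeper, a log2 difference of 4.73 ± 0.26, adjusted p = 4.80e-70. Itgb1bp2 had 34 and 41 reads (4.24 ± 0.30, adjusted p = 4.40e-42). Next by adjusted p came Itgb6 with 31 and 35 reads (2.68 ± 0.27, adjusted p = 3.68e-22) and Itgb1 with 15 and 21 (3.08 ± 0.35, adjusted p = 1.83e-17).

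Itga7 had 15 and 29 reads at its start, a difference of 2.29 ± 0.29, adjusted p = 6.34e-14. Itga5 had 9 and 9 reads (2.27 ± 0.43) and Lamc1 7 and 13 (2.60 ± 0.44). Itgav, not called in its body, had 3 and 13 reads at its start and a difference of 1.95 ± 0.49, adjusted p = 2.37e-04. With the G+C correction the starts of Itga5, Lamc1 and Itgav were not called higher. The difference was then 0.40 for the start of Itga5 and 0.18 for that of Lamc1. Lama2 and Lama4 had 3 and 4, and 1 and 1, reads there, with differences of 0.15 ± 0.47 and -0.40 ± 0.76. The start of Itgb1bp1, among those called, lies 60 bp from that of Cpsf3 on the other strand, so the same reads count for both genes. Without Pol II replicate 2 the number of starts called higher was 20, and without either input 0 were called lower.

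No Pol II read fell at the starts of Itga8, Itgb2 and Itgbl1 in either library. At the share of reads seen in the inputs, 4.84, 6.33 and 2.14 reads would have fallen there over both libraries. Against the 3 reads that a count of 0 allows over the group, Itga8 was at least 1.61-fold and Itgb2 at least 2.11-fold lower than input at equal library size, and Itgbl1 was at the floor. On the background scale Itga8 and Itgb2 had adjusted p = 0.384 and 0.193 by limma, and 0 starts of members were called lower. Intervals and floors cover counting error only.

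Levels per kb at the start relative to the body differed between members. The ratio was 3.56 and 2.29 for Itgb6 in replicates 1 and 2, 2.95 and 2.69 for Lamc1, 2.11 and 5.70 for Itgav, and 2.08 and 1.43 for Itgb1. It was 0.633 and 0.677 for Itga7 and 0.252 and 0.463 for Lama5. In the first of these groups Pol II was denser in the start window than over the body in both replicates. In the second it was denser over the body. That window also reaches 1000 bp before the start, so a ratio under 1 need not mean sparser Pol II just inside the gene. The first of 5 equal parts of Itga7 held 8.50 and 11.2 RPKM, above its body level of 7.70 and 7.75. The ratios carry no G+C correction. With it the log2 difference from input was 1.37 at the start and 2.09 in the body for Itgb1. For Lamc1 it was 0.18 and 0.14, and for Itgb6 2.64 and at most 1.59.

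Along the gene, split into 5 parts of equal length, Itgb6 fell from 5.81 and 5.23 RPKM in the first part to 1.99 and 2.48 in the last. Itga7 stayed between 5.31 and 11.2 RPKM in all parts of both replicates, and Itgb1 between 1.91 and 2.89. Itgb5 had 0.381 and 0.379 RPKM in its first part and 1.41 and 1.30 in its last. The mean input of Itgb5 rose too, from 0.341 in the first part to 0.687 in the last. These levels are not divided by input and carry no G+C correction. Pol II was thus spread over Itga7 and Itgb1, densest near the start of Itgb6, and densest towards the end of Itgb5.

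Several members had most of their Pol II in 1 or 2 of these parts. Itgad had 2.22 and 1.98 RPKM in its last part, where Cox6a2, a muscle gene of the respiratory chain, lies on the other strand, and at most 0.254 RPKM in each part before. With positions of other genes left out, the body difference of Itgad went from 0.28 to 0.05. Itgb3bp had 1.63 and 1.11 RPKM in its last part, 1942 bp from the 3′ end of Alg6. The mean input of Itgb3bp was 0.840 in that part and at most 0.640 in each part before. Lamb3 had 2.25 and 1.73 RPKM in its second part and 1.395 and 1.30 in its last, 2468 bp from Camk1g. The part of Alg6 and Camk1g in these values was not tested.

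**Figure D3:**
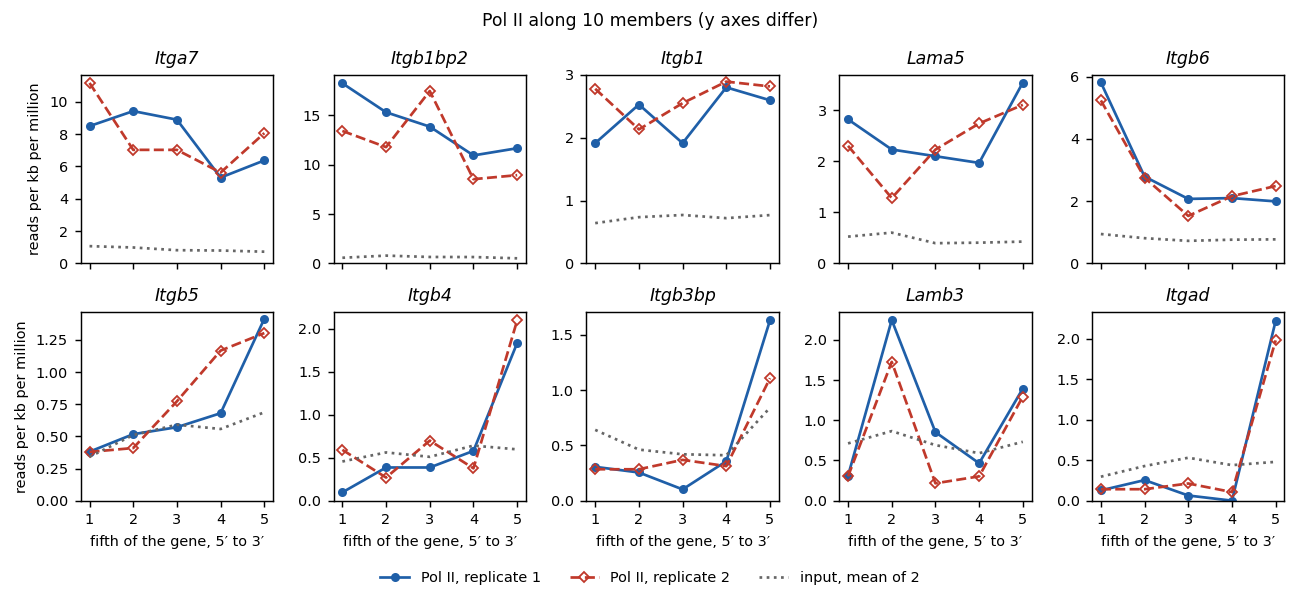
Pol II of both replicates (solid, replicate 1; dashed, replicate 2) and the mean of the inputs (dotted) in 5 equal parts of 10 members, from 5′ to 3′, in RPKM. The y axes differ between panels. Itga7, Itgb1bp2, Itgb1 and Lama5 lie above input in all parts, Itgb6 is highest in its first part, and Itgb4, Itgb3bp and Itgad are above input in both replicates only in the last.

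Peaks of Pol II that the authors called in each replicate fell inside 10 members in replicate 1 and 10 in replicate 2, beside 11.5% and 15.8% of all protein-coding genes. Itga7 held 12 and 16 of them and Itgb6 10 and 16. Itgb1 held 0 and 4, Itga5 0 and 3, and Lama5 3 and 2. In both replicates peaks lay in 8 members, 18.6% of them, against 9.12% of all genes. The members are long, with a median of 62.4 kb against 15.0 kb, and per Mb of gene they held 8.68 and 12.3 Pol II peaks beside 8.61 and 13.5 over all genes.

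The proteins that connect integrins to actin and the other basement membrane genes were listed as 32 partners, and 24 of them had more Pol II than input in the body, 3 had less and 5 were not called. On the background scale 29 were higher and 0 lower, and with the G+C correction 16 were higher and 7 lower. Over all genes 38.3%, 65.3% and 30.1% were higher on these scales. Flnc, the muscle filamin, had 21.0 and 21.6 RPKM (4.92 ± 0.09), Zyx 11.6 and 10.7 (3.47 ± 0.13), Hspg2, which encodes perlecan, 6.61 and 6.84 (3.57 ± 0.11), and Ilk 6.21 and 5.91 (3.08 ± 0.21). Dag1, the laminin receptor dystroglycan, had 2.81 and 2.91 RPKM (1.94 ± 0.08), close to Itgb1 in level.

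Between paralogues the partners differed. Fermt2, the kindlin of muscle, had 1.64 and 1.61 RPKM (1.24 ± 0.09, adjusted p = 2.61e-06), and Fermt1, that of epithelia, 0.111 and 0.133 (-1.11 ± 0.23, adjusted p = 2.40e-03). Lims1 had 2.19 and 2.31 RPKM and Lims2 0.149 and 0.166. Tln1 had 2.999 and 3.23 RPKM and Tln2 0.839 and 0.957. Nid2 had 1.02 and 0.876 RPKM and Nid1, its fellow linker of laminin to collagen, 0.0794 and 0.0885. In each pair the first gene was the higher one in both replicates. Fermt1, Lims2 and Nid1 were the 3 partners called lower. The median log2 difference of the partners was 0.97, beside -0.09 for the members and 0.13 over all genes. With the G+C correction that of the partners was 0.31, beside -0.22 for the members and -0.20 over all genes.

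For Sox6 fewer members were called than for Pol II, although the median log2 difference of the members from input was 0.77 at starts and 0.29 in bodies for Sox6 and 0.37 and -0.09 for Pol II. Over all genes the Sox6 medians were 0.42 and 0.17. With the G+C correction the Sox6 medians were -0.13 and -0.12 for the members and -0.22 and -0.11 over all genes. At starts, 0 members were called in either direction by limma, beside 0.404% of all genes called higher. At an unadjusted p under 0.05 there were 13 members, beside 13.4% of all genes. The value closest to the threshold was Lama3, with 10 and 4 Sox6 reads against 18 and 14 input reads, a log2 difference of 2.21 ± 0.51 and adjusted p = 0.0582. With no filter on low counts Lama3 and Itgb1bp3 were called, and with limma's voom weights Lama3 was. The G+C correction left 0 called and 4 members at an unadjusted p under 0.05, beside 8.22% of all genes. At starts it overcorrected: the Spearman rho between difference and G+C content over all genes went from 0.277 to -0.21.

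In gene bodies 7 members had more Sox6 than input (5.30% of all genes) and 1 had less (1.75%). Itgb1bp3 had 18 and 16 Sox6 reads, or 2.10 and 3.80 RPKM, against 0.905 and 1.09 in the inputs, a log2 difference of 1.54 ± 0.35, adjusted p = 0.0401. Lamb2 had 1.04 and 1.27 RPKM (1.12 ± 0.24, adjusted p = 0.0331) and Lama5 0.815 and 0.969 (0.91 ± 0.14, adjusted p = 0.0190). Itgb2 had 0.983 and 1.19 RPKM (0.63 ± 0.15, adjusted p = 0.0428) and Itga7 1.20 and 1.39 (0.59 ± 0.15, adjusted p = 0.0483). Itga11 and Itga9 completed the group with differences of 0.52 ± 0.12 and 0.39 ± 0.08. Without input replicate 1 the count was 1 and without input replicate 2 it was 2, and with either Sox6 library alone, whose spread the model takes from the inputs, it was 14 or 23. Lama2 was the one lower, at 0.534 and 0.469 RPKM against 0.683 and 0.630, a difference of -0.39 ± 0.08, adjusted p = 0.0335.

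Every one of these 8 calls was lost after the correction for G+C content, with 0.0324% of all genes called higher. The differences became 0.82 for Itgb1bp3, 0.21 for Lamb2, 0.03 for Itgb2, -0.02 for Itga7, -0.09 for Itga11, -0.10 for Itga9 and -0.15 for Lama2. That of Lama5 was -0.0007. The Sox6 difference followed G+C content across bodies, with a Spearman rho of 0.849 over the 43 members and 0.648 over 18503 genes, given as a description since the points share the same libraries. Of 4 equal groups of all genes ordered by G+C content, the lowest had a median difference of -0.27 and the highest 0.61. Of the 32 partners, 11 bodies were higher for Sox6 as counted and 0 after the correction. After the correction rho was 0.178 over the members and -0.036 over all genes.

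**Figure D4:**
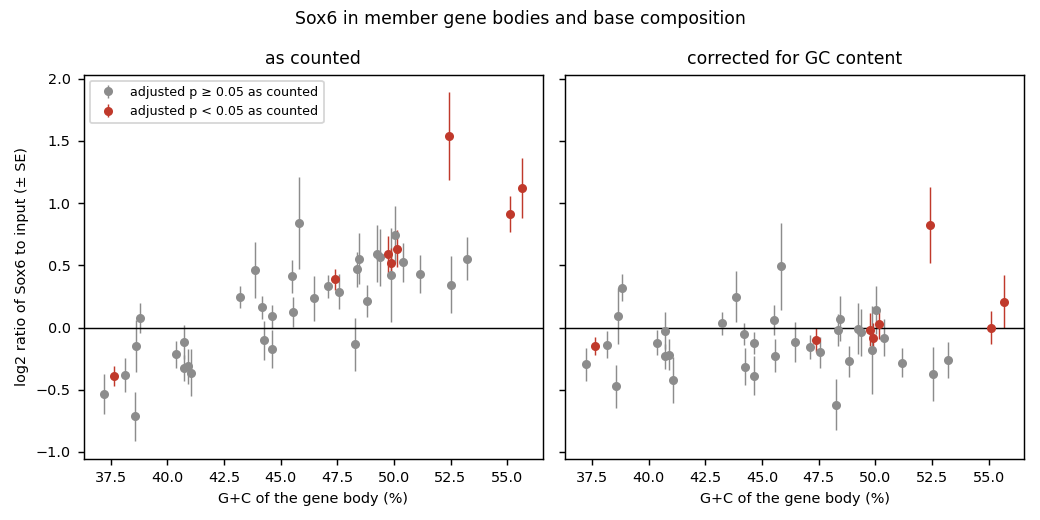
The log2 ratio of Sox6 to input in the bodies of 42 members, with its standard error, against the G+C content of the body in percent, as counted (left) and corrected for G+C content (right). Red points are the 8 members called as counted. The points rise with G+C content on the left and lie flat on the right, where none was called.

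The list of Sox6 peaks common to both replicates placed 5 peaks in or within 20 kb of 4 members, Itgam, Itgb2, Itgb3 (with 2 peaks) and Itgb3bp. That is 9.30% of the members beside 4.31% of all protein-coding genes, which are shorter. Per Mb of gene and flank there were 0.887 common peaks at members and 0.667 over all genes. Within 5 kb the number of members was 3 (2.70% of all genes), inside the gene it was 2 (2.22%), and within 50 kb it was 6 (6.97%), with Itga2b and Itga6 added. Itga7, Itgb1 and the laminin genes had no common peak within 20 kb, and the nearest lay 437.0 kb from Itga7 and 1502 kb from Itgb1.

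The centres of 3 of these peaks, 120 bases each on the plus strand, are printed to show the letters under the peak. Capitals mark matches on either strand to AACAAT or ACAAAG, which fit the HMG box of Sox proteins, and to CAGCTG or CAGGTG. They are the peaks near Itgam (chr7:135202391-135202510), past Itgb2 (chr10:77046561-77046680) and in Itgb3 (chr11:104473021-104473140).
Itgam: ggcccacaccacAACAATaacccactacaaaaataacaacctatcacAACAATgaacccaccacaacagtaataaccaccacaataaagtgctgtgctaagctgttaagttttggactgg
Itgb2: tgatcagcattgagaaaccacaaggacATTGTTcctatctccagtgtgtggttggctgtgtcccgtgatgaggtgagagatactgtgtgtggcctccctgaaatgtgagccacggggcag
Itgb3: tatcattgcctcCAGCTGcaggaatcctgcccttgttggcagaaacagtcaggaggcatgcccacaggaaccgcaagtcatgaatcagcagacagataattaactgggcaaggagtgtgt
Itgam held 2 matches to AACAAT, Itgb2 held 1 to the same motif as its reverse complement, and Itgb3 held CAGCTG and neither AACAAT nor ACAAAG. Only exact matches were searched, so other forms of a Sox motif were not looked for. Over the 1066 common peaks at this length, 23.8% held AACAAT, 20.9% ACAAAG, 36.96% CAGCTG and 17.2% CAGGTG. The matches are descriptions of sequence and not of binding.

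Reads in 450 bp around the centre, which chose these peaks, are given with no test. The peak 3746 bp upstream of Itgam (chr7:135202382-135202521) had 17 and 16 Sox6 reads against 10 and 4 input reads, a log2 difference of 4.77, at the 92.7th percentile of common peaks. The peak linked to Itgb2 (chr10:77046562-77046681) had 22 and 14 against 10 and 22, a difference of 3.70. It lies 18.2 kb past the end of Itgb2 and inside Pttg1ip. The peak in the last exon of Itgb3bp, exon 9, in its 3′ untranslated part (chr4:99433662-99433761), had 17 and 9 reads against 12 and 15, a difference of 3.35. The median over all common peaks was 3.52.

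At Itgb3 both peaks were weak for the list. The one in intron 1, 3711 bp after the start (chr11:104473042-104473121), had 9 and 6 Sox6 reads against 24 and 27 input reads, a difference of 1.74 at the 4.22th percentile. The other (chr11:104449302-104450861) lies 19289 bp upstream of Itgb3 but 1552 bp from Myl4, a myosin light chain gene of fetal muscle, and had 12 and 9 reads against 21 and 25. The body of Myl4 carried 26.9 and 27.7 RPKM of Pol II, and that of Itgb3 0.741 and 0.778.

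**Figure D5:**
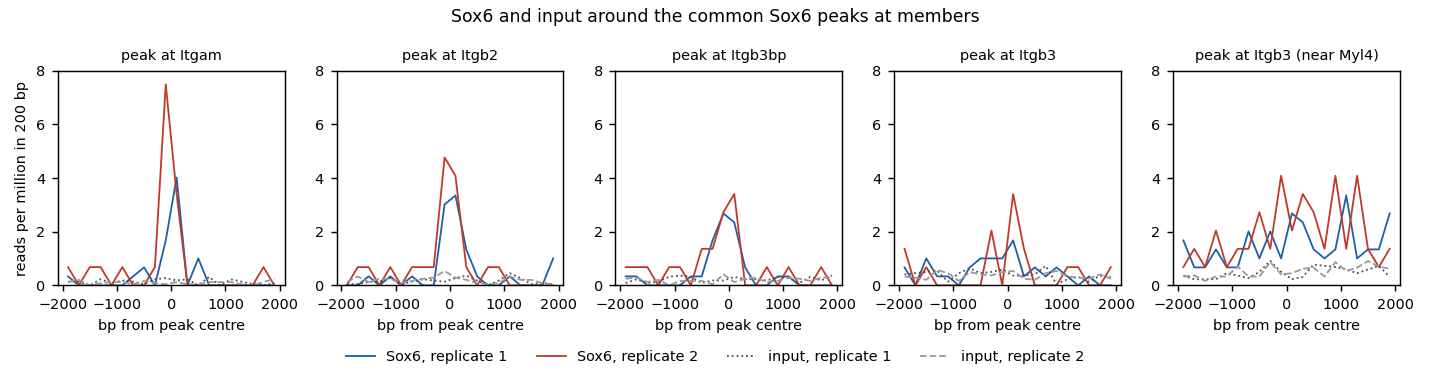
Sox6 (solid lines) and input (dotted and dashed) in bins of 200 bp up to 2000 bp on either side of the 5 common peaks at members, in reads per 1000000 reads. The highest bins of the peak near Itgam reach 4.02 and 7.49 in the Sox6 replicates, those of the peak in Itgb3 1.67 and 3.40, and input stays at or under 0.910 in all panels.

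Pol II was then compared with input at the common peaks. Pol II reads did not choose these peaks, but input served as background when they were called and enters this ratio too. The effect of that choice on the ratio was not tested. Pol II was higher at 4 of the 5 peaks of the members, beside 58.4% of the 1066 common peaks. The peak near Myl4 had 93 and 167 Pol II reads against 21 and 25 input reads, a difference of 5.90 ± 0.38, adjusted p = 2.15e-50. The Itgb3bp peak had 7 and 4 reads (2.22 ± 0.55, adjusted p = 1.67e-04), that in Pttg1ip 6 and 5 (2.12 ± 0.53, adjusted p = 2.10e-04) and that near Itgam 1 and 3 (1.90 ± 0.86, adjusted p = 0.0471). At the Itgb3 intron the Pol II libraries held 1 read each against 24 and 27 in the inputs, a difference of -0.63 ± 0.67, adjusted p = 0.433. Apart from the peak near Myl4 these rest on few reads: without Pol II replicate 1 the number called was 2, without replicate 2 it was 3, and without either input it was 1, the peak near Myl4.

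The lists of single replicates reached further. That of replicate 1 placed 15 peaks at 11 members (9.62% of all genes had one) and that of replicate 2 placed 12 at 9 members (6.63% of all genes). Each such peak was tested with Sox6 and input reads from the opposite replicate, using an exact binomial test (two-sided, adjusted over the list after Benjamini and Hochberg), which covers counting error only. Of the 15 peaks 8 had more Sox6 than input in replicate 2, beside 67.0% of the 2888 peaks of that list, and of the 12 peaks 9 did in replicate 1, beside 84.4% of 1734. Both lists hold the sites of the common list, so at Itgam, Itgb2, Itgb3 and Itgb3bp the reads of both replicates had already chosen most of the peaks, and those calls are a description. Called peaks at other members lay at Itgae, Itgb1bp3, Itgb6 and Lama4, among others.

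Lama4 had a called peak of each list. One lies 3450 bp upstream (chr10:38681812-38681931) with 9 and 4 Sox6 reads against 8 and 8 in the inputs, adjusted p = 6.81e-03 by the exact binomial test in replicate 2. The other lies in intron 11 (chr10:38769352-38769391) with 8 and 10 reads against 12 and 17, adjusted p = 2.07e-03 by the exact test in replicate 1. Neither has a partner in the other list, so the common list holds neither. Itgb6 had a called peak in intron 1, 33.5 kb after its start (chr2:60526952-60527351), with 6 and 7 reads against 9 and 9, exact adjusted p = 7.49e-03.

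Other called peaks lay outside their member and inside another gene. That of Itgb1bp3 (chr10:80645732-80645991) is in 4930442H23Rik, 15054 bp past the end, with 10 and 9 Sox6 reads and 34 and 47 Pol II reads, exact adjusted p = 3.67e-07. That of Itgae (chr11:72974752-72974851) is in P2rx5, 13.9 kb past the end, with 6 and 7 reads, exact adjusted p = 1.23e-03. The 10 peaks not called in the other replicate, 4 at Itgb3 and 1 each at Itga1, Itgb5, Itgb6, Lamb1, Lamb3 and Lamc1, held 1 to 7 Sox6 reads there. One of these, in intron 1 of Itgb3, is the replicate 2 entry of the common peak described above, which the list of replicate 1 also holds. For the others a missing call at the depth of these libraries is not the same as absence.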

How the data were processed

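ChIP-seq was measured in 6 libraries, 2 each of Sox6, Pol II and input. The authors aligned single-end reads with Bowtie (0.12.5 in the submitters' processing notes) to NCBI Build 37, kept those with a single place and called peaks with SISSRs against input at a fragment length of 450 bp. Common Sox6 peaks are those within 50 bp in both lists. The deposited files hold read and peak positions with no counts, and the authors' score columns were not used. Reads with a repeated position, 2.96% to 7.88% of a library, were kept.

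Here 5′ ends were counted in windows of the mm9 annotation, at starts (1000 bp on either side), over bodies (at least 1000 bp) and in 450 bp around peak centres. Genes with under 10 reads in the sum of both inputs were left out. With 0.5 reads added, log2 of the share of reads (scaled to 1000000) was fitted with limma 3.58.1 (R 4.3.3) with a trend, 2 libraries against 2, which leaves 2 residual degrees of freedom, with Benjamini-Hochberg adjustment at 0.05. The spread of each window is shrunk towards the trend over all windows tested, so p-values draw on the other windows too. At small counts the added reads raise the ratios of the shallow ChIP libraries. Levels are RPKM over the window. The G+C correction divides by the ratio of ChIP to input in background bins of like composition. Python 3.11.15 was used for the rest. The fit was tested on simulated data. Depth limits single starts and peaks, where most members held under 20 ChIP reads.

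Given in full were 14 members fixed for muscle, the 10 with most Pol II in the body, those with a Sox6 peak within 20 kb and those called for Sox6. Others named were chosen after their values were seen. The members, lists, groupings by ligand and tests were chosen with earlier results of these data known. Alternatives were other windows, other scalings, other pseudocounts, no filter, voom, repeated positions counted once, a replicate block, all 6 libraries in 1 fit and each library left out. The scaling with G+C correction together, and bodies without positions of other genes, were added after seeing the data. The values of 1 member are not reported here.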

Additional observations from a re-analysis of the deposited data

How the results depend on the processing

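Pol II at starts, 12 higher and 2 lower, became 25 and 0 on the background scale, 6 and 8 with the G+C correction and 3 and 0 with voom. With both steps 1 was lower, with all 6 libraries in 1 fit 1, and with 500 bp windows 0. Leaving out 1 library gave 9 to 20 higher and 0 to 8 lower. Pol II in bodies, 18 higher and 17 lower, became 33 and 1 on the background scale, also without positions of other genes, and 29 and 2 with both steps. The G+C correction alone left 8 higher. Leaving out 1 library gave 13 to 19 higher and 15 to 20 lower.

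For Sox6 at starts, 0 in each direction, 2 were higher with no filter, 1 with voom and 1 with 500 bp windows, and leaving out 1 library gave 0 to 23 higher and 0 to 5 lower. For Sox6 in bodies, 7 higher and 1 lower, a pseudocount equal after scaling to library size gave 0 and 0, as did the G+C correction with and without background scaling. Background scaling gave 13 and 0, beside 2157 and 121 of all 18503 genes, or 12 and 0 without positions of other genes. Voom and the fit of all 6 libraries each gave 2 lower. Leaving out 1 library gave 1 to 23 higher and 0 to 8 lower. A lone ChIP library was assumed to vary like the inputs. For these differences between settings the cause was not tested. Pol II at common peaks, 4 higher, gave 1 to 3 with 1 library left out. Members with a common peak, 4, became 2 inside genes, 11 with the list of replicate 1 and 9 with that of replicate 2. With the deposited intervals in place of 450 bp, 5 of 15 and 4 of 12 peaks at members were called in the other replicate. Over the whole lists 902 of 2888 and 790 of 1734 were.

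Same-numbered libraries did not deviate together, with correlations from -0.065 to 0.051. The authors used the input of each ChIP experiment as its background. The sources used here do not say by number which input that was, so the libraries were taken to share only a number. With the replicate block, 1 start was lower for Pol II, 2 starts were higher for Sox6, and 17 bodies were higher and 5 lower for Sox6.

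Members not followed under each alternative also changed sign for Pol II in bodies. Among them were Itgb4 (-0.72 with the G+C correction) and Itgb3, Itga1 and Lamc3 (0.62, 0.74 and 0.68 on the background scale). Among the single differences followed under each alternative, the following did. With the G+C correction Pol II was -0.82 at the start of Lama5, -0.069 in the body of Itgb5 and -0.075 in that of Lamb1, and Sox6 in bodies was -0.086 for Itga11, -0.017 for Itga7, -0.10 for Itga9 and -0.0007 for Lama5. On the background scale Pol II was 1.26 for Itgav and 0.89 for Lama2, the same without positions of other genes, and 0.72 at the peak in the Itgb3 intron, which was 0.19 with 1000 bp windows. With both steps Pol II was 1.22 for Itgav, 1.21 for Lama2 and 0.014 for Lama4, and Sox6 was 0.01 for Lama2. Of the other single values compared under the alternatives, 285 in Pol II bodies, 195 at starts, 104 in Sox6 bodies and 32 at peaks kept direction and side of the threshold, and 12, 41, 35 and 11 lost their call.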
